A study of Mus musculus with 4 samples.

Results

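The Ikaros family genes Ikzf1, Ikzf2, Ikzf3, Ikzf4 and Ikzf5 were examined for Runx3 binding in splenic CD4+ dendritic cells (DC). A Runx3-bound region (peak) was counted for a gene when its centre lay in the gene body or within 100 kb of it, with genes taken from GENCODE M1 on mm9. By this rule 17 of the 15121 deposited peaks were found at the 5 genes, and no peak was counted for more than 1 of them. The CD11chiMHCII+CD4+ subset of conventional DC was sorted from spleens of wild-type mice, pooled from about 15 animals, whose age is not given in the sources used here. Anti-Runx3 polyclonal antibodies were used on 2 chromatin samples, and 2 samples of whole cell extract chromatin served as control. The strain is labelled C57BL/6 for all samples except input replicate 2, which is labelled C57BL/7. Identity of the sorted cells rests on the surface markers, since no expression was measured in these samples.

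The authors called peaks once, on both Runx3 samples together against both controls, and for each peak the list has its position and the MACS2 score. What unit this score has is nowhere stated. Peaks were ranked by it, and a strong or strongest peak below is one with a high or the highest score. Because the list is pooled, no score has a replicate error, and whether 2 peaks differ in binding could not be tested. The file holds no read counts per sample or per peak, and a missing peak means only that none was called. No p-value is therefore given for any value below, and counts at the Ikaros family genes are set beside the same counts over all 22367 protein-coding genes. A gene assigned by distance is not thereby shown to be regulated from the peak.

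Ikaros family proteins are zinc finger transcription factors. Fingers near the N-terminus bind DNA and a pair near the C-terminus joins family members into dimers, so that the proteins can act together. Ikaros (Ikzf1) is needed for lymphocyte development and also for DC development, Aiolos (Ikzf3) is known from B cells, and Helios (Ikzf2) and Eos (Ikzf4) from regulatory T cells. Pegasus (Ikzf5) is the most divergent member. RUNX proteins such as Runx3 bind DNA at the hexamer TGTGGT, which reads ACCACA on the opposite strand.

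The sequences below are the parts of 5 peaks on which the description turns, namely the strongest peaks of Ikzf1, Ikzf4 and Ikzf5, a further strong peak inside Ikzf1, chosen after its value was seen, and the only peak at a family promoter. They are given 5′ to 3′ on the plus strand of mm9, as the 200 bp nearest the peak centre, or less where annotated exons were left out. Capitals mark the RUNX hexamer, which the second and the fifth sequence do not hold. In the second they mark an AP-1 site (TGANTCA) and the PU.1 hexamer GAGGAA, and the fifth has no capitals.
Ikzf1 intron 7, score 86.69, chr11:11666216-11666415: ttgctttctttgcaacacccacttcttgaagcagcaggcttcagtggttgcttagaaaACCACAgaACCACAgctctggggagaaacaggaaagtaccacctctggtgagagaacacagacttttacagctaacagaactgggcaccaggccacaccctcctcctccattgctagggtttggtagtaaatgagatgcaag
Ikzf1 intron 7, score 43.03, chr11:11663323-11663522: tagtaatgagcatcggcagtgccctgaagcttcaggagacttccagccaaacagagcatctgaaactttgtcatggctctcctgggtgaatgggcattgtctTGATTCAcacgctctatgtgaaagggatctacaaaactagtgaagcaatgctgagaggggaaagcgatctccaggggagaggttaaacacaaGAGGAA
Downstream of Ikzf4, score 85.79, chr10:127973237-127973436: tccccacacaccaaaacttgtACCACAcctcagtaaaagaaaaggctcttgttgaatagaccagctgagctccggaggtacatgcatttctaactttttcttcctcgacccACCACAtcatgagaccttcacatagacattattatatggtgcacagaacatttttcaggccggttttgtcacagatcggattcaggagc
Downstream of Ikzf5, score 13.11, chr7:138506213-138506412: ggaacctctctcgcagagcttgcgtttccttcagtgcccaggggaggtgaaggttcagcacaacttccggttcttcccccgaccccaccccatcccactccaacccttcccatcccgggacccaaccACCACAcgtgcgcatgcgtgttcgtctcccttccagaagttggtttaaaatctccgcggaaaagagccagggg
Between the starts of Ikzf5 and Acadsb, score 6.45, chr7:138554036-138554114: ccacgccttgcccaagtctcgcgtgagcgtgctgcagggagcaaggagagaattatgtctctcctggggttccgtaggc

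Runx3 peaks were unevenly spread over the family. Ikzf4 had 8, Ikzf1 had 5 (27.4% of all protein-coding genes had 5 or more), Ikzf3 and Ikzf5 had 2 each and Ikzf2 had 0, so that 4 of the 5 genes had at least 1 peak, beside 72.1% of all protein-coding genes. Inside the genes, only Ikzf1 had peaks with a score in the upper quartile of the list, 23.2 or higher. Of the 17 peaks, 5 were centred in the body of a family gene, 3 of them in Ikzf1, 1 in Ikzf4 and 1 in Ikzf5. At least 1 peak in the body was thus found for 3 of the 5 genes and for 23.2% of all protein-coding genes. For 14 of the 17 peaks the nearest protein-coding transcription start site (TSS) was that of another gene, and 7 of these were centred within 1 kb of it. Such a majority follows largely from the rule and is no trait of the family. From a list of 15121 peaks, the rule counted a mean of 3.10 for each of 22367 protein-coding genes, so that most peaks were counted for several genes. Each peak has only a single nearest TSS.

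**Figure D1:**
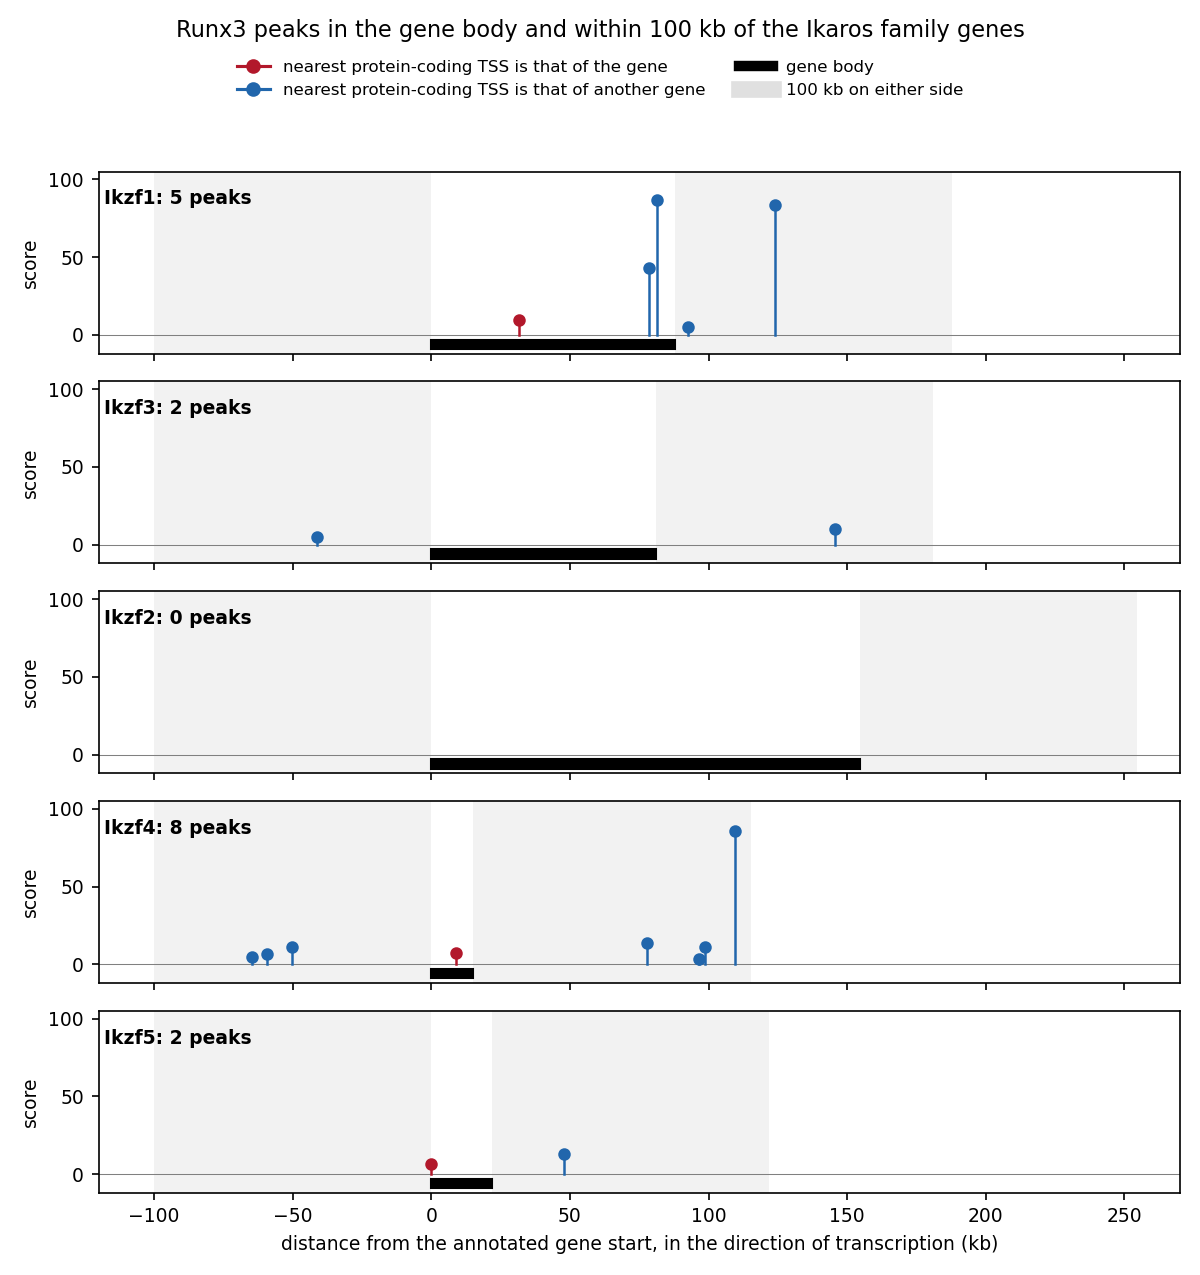
Runx3 peaks around the 5 Ikaros family genes, each drawn from its annotated start in the direction of transcription (x axis, kb) with the peak score as height (y axis); black bars are gene bodies, grey areas the 100 kb on either side, and red or blue marks whether the nearest protein-coding TSS is that of the gene or of another. The 2 tall peaks inside a gene, with scores of 86.69 and 43.03, lie near the 3′ end of Ikzf1, and Ikzf2 has none.

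Ikzf1 encodes Ikaros, the founding member of the family, and lies on chromosome 11 from 11585006 to 11672929 on the plus strand. Its 3 intragenic peaks were all intronic. The strongest, from 11665991 to 11666641, had a score of 86.69, rank 260 of the list, and was centred in intron 7, the last of the longest protein-coding transcript. A second peak in the same intron, from 11663096 to 11663750, scored 43.03 at the percentile 90.5 and was centred 2893 bp from the first. Both lay towards the 3′ end of the gene, 81310 and 78417 bp from its start. The protein-coding TSS nearest to both was that of the neighbour Fignl1, at 35148 and 38041 bp, against 66094 and 63201 bp to the nearest TSS of Ikzf1, and by nearest TSS Ikzf1 kept 1 of its 5 peaks. Of the 5180 protein-coding genes with a peak in the body, 97.5% had a lower best score there than Ikzf1. Gene length bears on such counts, since 3 or more peaks in the body were found for 2.96% of all protein-coding genes but for 14.0% of the 2767 genes at least as long as Ikzf1.

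The start of Ikzf1 had no peak. The third intragenic peak, from 11616562 to 11616911 in intron 3, scored 9.84, below the list median of 12.1. Its centre lay 16514 bp from the nearest of the 8 annotated Ikzf1 TSS, and no other peak came closer to any of them. Downstream of the gene, a narrow peak of 253 bp scored 5.36 at 4586 bp from the gene end. The last peak, from 11708530 to 11709249, scored 83.38, but was centred 39 bp inside Fignl1, a neighbour whose product takes part in DNA repair, and 35960 bp beyond the end of Ikzf1. The 2 strongest peaks at Ikzf1 thus differed in place, one within its last intron and one at the promoter of Fignl1.

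The intron 7 peaks of Ikzf1 also differed in sequence. In the stronger one the RUNX hexamer occurred 3 times, all on the minus strand, and the first 2 started 8 bp apart, within the 200 bp around the peak centre. Among all peaks, 1.10% held 2 hexamers on 1 strand within 10 bp and 5.03% held 3 or more. These limits were not planned beforehand, and the shares were not matched for width, where the list median is 406 bp. The peak with a score of 43.03 was of almost equal width, 655 bp against 651 bp, and had none. It did hold 3 PU.1 hexamers and 1 AP-1 site, where the stronger peak had 2 PU.1 hexamers and no AP-1 site. The PU.1 hexamer was in 53.6% of all peaks and the AP-1 site in 13.2%. The looser RUNX pattern TGNGGT occurred 2 times in the peak with a score of 43.03 and 3 times in the stronger one. The hexamer occurred once in each of the other 3 peaks of Ikzf1, within 50 bp of the peak centre.

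Ikzf3 encodes Aiolos and lies on the same chromosome, from 98326216 to 98407345 on the minus strand. Neither of its 2 peaks was in the gene. The peak from 98261491 to 98261840 scored 10.01 and was centred 63 bp from the TSS of Pgap3, which remodels GPI anchors, 64551 bp beyond the gene end. The other, from 98448439 to 98448761, scored 4.79 and was centred 82 bp from the TSS of Ormdl3, a regulator of sphingolipid synthesis, 41255 bp upstream of Ikzf3. Both held no RUNX hexamer, and both had scores below the list median. The window around Ikzf3 is rich in genes, with 11 protein-coding gene starts where the median gene has 5.

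Ikzf2, which encodes Helios, had no peak in its body or within 100 kb. It is the longest gene of the family, at 155 kb, and lies on chromosome 1 from 69577788 to 69732534 on the minus strand. Of the 1350 protein-coding genes at least as long, 64.8% had a peak by the same rule. The peak nearest to Ikzf2 was centred 764810 bp downstream of it, scored 24.94 and lay closest to the TSS of Erbb4, a receptor tyrosine kinase gene. RUNX hexamers were nonetheless present, with 228 in the window of Ikzf2, or 64.3 per 100 kb, and 0 of these lay in a peak. In the windows of the other 4 genes there were 73.5 to 96.4 hexamers per 100 kb, and 6 of 258 lay in peaks at Ikzf1, 7 of 206 at Ikzf4, 1 of 163 at Ikzf5 and 0 of 271 at Ikzf3.

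Ikzf4 encodes Eos and had the most peaks, 8, with as many or more found for 10.5% of protein-coding genes. It is the shortest of the 5 genes (chromosome 10, 128067899 to 128083047, minus strand). A single peak, from 128074066 to 128074350 in intron 5, was inside it, with a score of 7.20 and 1 RUNX hexamer, 6557 bp from the nearest TSS of Ikzf4. The other 7 lay 50290 to 94562 bp from the gene, in a window with 11 protein-coding gene starts. The strongest of them, from 127973001 to 127973674, scored 85.79 (rank 266) and held 2 RUNX hexamers, which started 90 bp apart. It was the most distant peak from Ikzf4 and lay 10411 bp upstream of Esyt1, which tethers the endoplasmic reticulum to the plasma membrane.

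Peaks at the promoters of neighbours made up part of the count at Ikzf4. Peaks with scores of 11.05, 6.57 and 11.09 were centred within 1 kb of the TSS of Rab5b (an early endosome GTPase), Cdk2 (a cell cycle kinase) and Zc3h10, at distances of 13, 107 and 298 bp. The remaining 3, nearest to Zc3h10, Pa2g4 and Pmel, scored 3.69, 13.43 and 4.73. Apart from the peak near Esyt1, then, all peaks around Ikzf4 scored 13.43 or less.

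Ikzf5, which encodes Pegasus, was the only member with a peak at its own promoter. A peak within 1 kb of an own TSS was thus found for 1 of the 5 genes and for 24.9% of protein-coding genes. The gene lies on chromosome 7 from 138532166 to 138554035 on the minus strand. The promoter peak, from 138553801 to 138554175, was centred in the untranslated part of exon 1, 47 bp inside the gene and 21 bp from the nearest of its annotated TSS, and scored 6.45 at the percentile 19.6. Acadsb, a mitochondrial acyl-CoA dehydrogenase gene, starts in the opposite direction 80 bp from the start of Ikzf5, so that the peak covers both starts. The second peak, from 138506006 to 138506490, scored 13.11 and was centred 36 bp upstream of the TSS of 2310057M21Rik, 25918 bp beyond the end of Ikzf5. Of these the promoter peak held no RUNX hexamer and the other held 1.

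**Figure D2:**
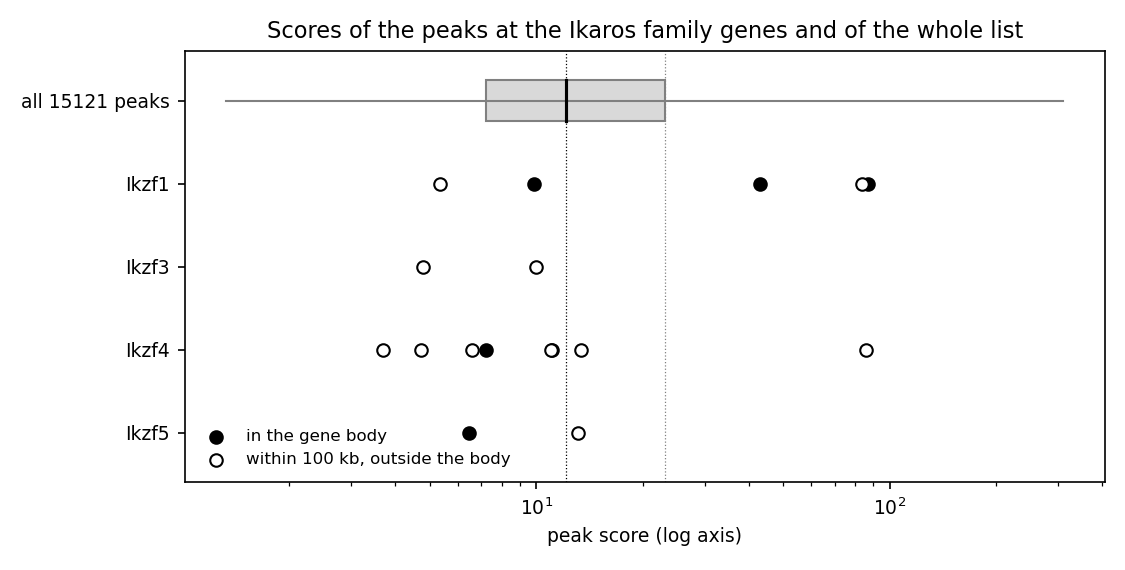
Scores (x axis, log scale) of the peaks at each Ikaros family gene with a peak, filled where the centre is in the gene body and open where it is outside, below a box of all 15121 peaks that shows the quartiles, with a line from the lowest to the highest score. Dotted lines mark the list median of 12.1 and upper quartile of 23.2; only Ikzf1 and Ikzf4 have peaks beyond the latter.

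The median of the 17 scores, which reached from 3.69 to 86.69, was 10.01, beside a list median of 12.1. Only 6 peaks reached the list median, and 4 (23.5%) reached the upper quartile, as did 25.4% of all peaks. Of these 4, 3 were at Ikzf1 and 1 at Ikzf4. By their best score the genes stood in the order Ikzf1, Ikzf4, Ikzf5 and Ikzf3, with 86.69, 85.79, 13.11 and 10.01. Within the gene body the order was Ikzf1, Ikzf4 and Ikzf5, with 86.69, 7.20 and 6.45. Neighbours in either order cannot be separated by a replicate spread.

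**Figure D3:**
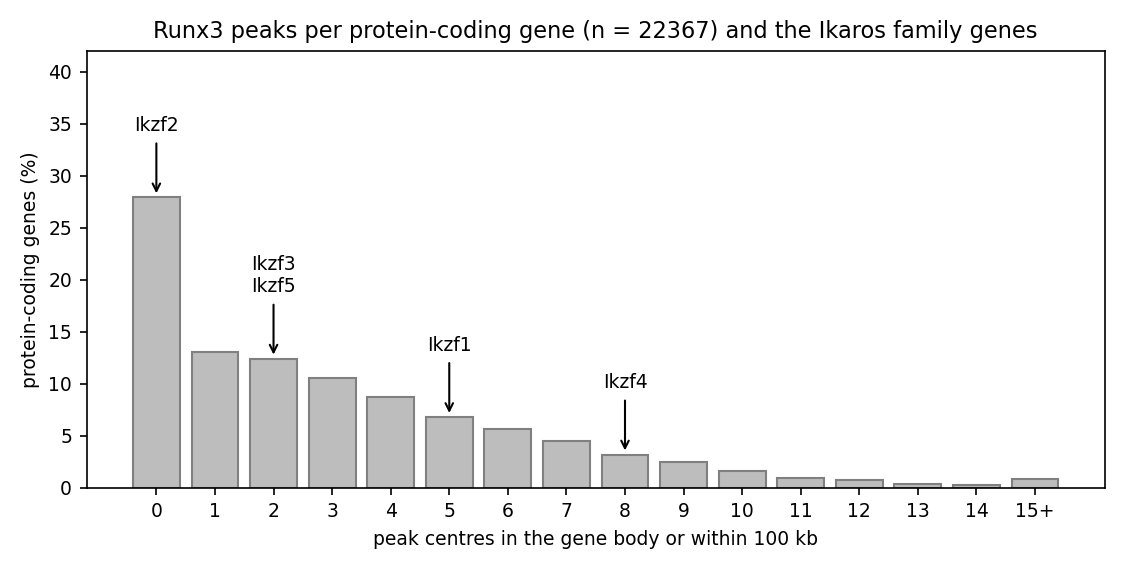
Share of all 22367 protein-coding genes (y axis, %) by the number of Runx3 peak centres in the gene body or within 100 kb (x axis), with arrows at the counts of the Ikaros family genes. Ikzf2 is among the 27.9% of genes with no peak, Ikzf3 and Ikzf5 are at the median of 2, and Ikzf4 has 8.

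By peak number, Ikzf3 and Ikzf5 were at the median of all protein-coding genes, 2 peaks, and Ikzf1 at the upper quartile, 5. Ikzf4 exceeded 89.5% of genes. Divided by the length of gene and flanks, peaks numbered 3.72 per 100 kb at Ikzf4, 1.74 at Ikzf1, 0.901 at Ikzf5 and 0.711 at Ikzf3, where the median gene had 0.943. The limit of 100 kb fell between peaks 94562 and 102528 bp from Ikzf4, with scores of 85.79 inside and 12.69 outside. For Ikzf1, Ikzf3 and Ikzf5 the last peaks inside lay at 35960, 64551 and 25918 bp, and the first outside at 115441, 103504 and 485712 bp, with scores of 4.21, 10.11 and 13.43.

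Over the full width of the peaks and on both strands, the RUNX hexamer occurred in 11 of the 17, a share of 64.7%, and in 54.0% of all peaks. Counting error alone gives a Wilson 95% interval from 41.3% to 82.7%. That interval takes the peaks as independent, although 8 of them lie around Ikzf4, and it is not a replicate error. The paper reports a higher share of bound regions with this motif. It names de novo discovery and does not state how matches were counted, so the 2 shares may not measure the same thing. Windows of the same width 10 kb downstream held the hexamer in 8 of 17 cases, against 30.9% over the list. Per kb of sequence there were 1.78 hexamers at the family and 1.82 in all peaks. With the looser pattern TGNGGT the order was reversed, at 13 of the 17 peaks (76.5%) beside 81.7% of all peaks. The 11 peaks with the hexamer had a median score of 11.1, with a range from 4.73 to 86.69, and the 6 without it 6.51, with a range from 3.69 to 43.03. These ranges overlap, and width moved with the hexamer as well, since the median width was 485 bp with it and 336 bp without.

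**Figure D4:**
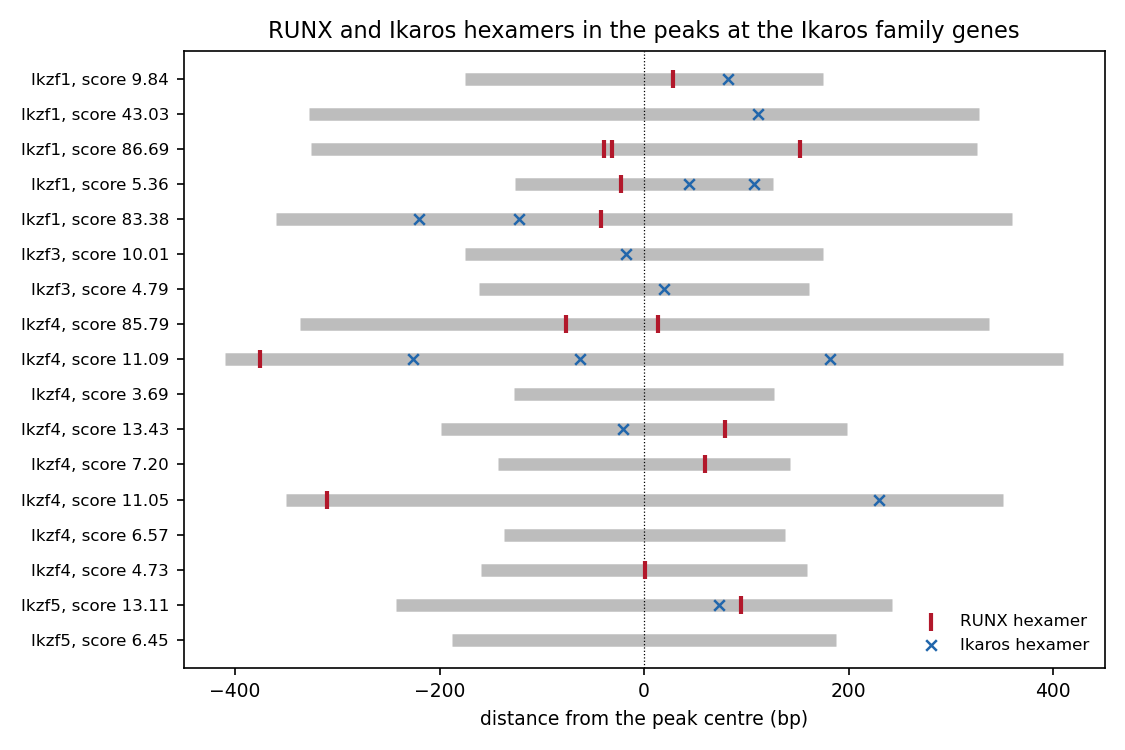
The 17 peaks at the Ikaros family genes drawn to scale around their centres (x axis, bp), with red bars for RUNX hexamers and blue crosses for Ikaros hexamers on either strand. Of the peaks, 11 hold a RUNX hexamer, 10 an Ikaros hexamer and 1, in intron 7 of Ikzf1, 3 RUNX hexamers.

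Promoter and distal peaks at the family differed in composition. The 8 peaks within 1 kb of any protein-coding TSS had a GC content of 56.3% to 66.3%, and the 9 farther away one of 39.4% to 55.8%, so that the groups did not overlap. Over the whole list the medians were 60.1% and 47.6%, so the same difference was seen there. From the 5th to the 95th percentile, all peaks spanned 45.1% to 70.2% near a TSS and 38.5% to 58.0% farther away. These spans overlap, and the lack of overlap at the family rests on few peaks with a narrow gap between them. The RUNX hexamer was in 4 of the 8 and in 7 of the 9, beside 33.6% and 65.7% of all peaks near and far from a TSS. Peaks near a TSS made up 47.1% at the family and 36.3% of the list.

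Hexamers of other factors were counted in the same way. Ikaros proteins bind TGGGAA, which was in 10 of the 17 peaks (58.8%), in 35.2% of all peaks and in 35.2% of the downstream windows of the list, but also in 8 of the 17 windows at the family. GAGGAA, bound by the myeloid factor PU.1, was in 52.9% of the 17 peaks and 53.6% of all. TGACGT, assigned to the DC factor zDC, was in 4 of them, at the promoters of Ormdl3, Zc3h10, Rab5b and Cdk2, and in 11.0% of all peaks. That background share was not split by distance to a TSS, and peaks near a TSS were 47.1% at the family and 36.3% of the list. The AP-1 site TGANTCA was in 2 peaks (11.8%), the composite ETS and IRF site in 1 (5.88%) and the IRF site in 2 (11.8%), beside 13.2%, 7.81% and 6.48% of all peaks. GAGGAA and TGGGAA can overlap the composite site. In the promoters of the 5 genes, from 250 bp before to 50 bp after the gene start, there was no RUNX hexamer, which 15.3% of all protein-coding promoters of this length held. A match is a stretch of letters and not a measured site.

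Ikaros proteins work through partners, among them the NuRD, Sin3 and CtBP corepressors. In human cells, Ikaros and Aiolos are degraded through the cereblon ubiquitin ligase when it binds certain drugs. Of 23 genes of these complexes, with the SWI/SNF ATPase gene Smarca4 and the related zinc finger gene Trps1, 20 (87.0%) had a Runx3 peak by the same rule, beside 72.1% of all protein-coding genes. A peak within 1 kb of an own TSS was found for 13 (56.5%), beside 24.9%. They included 5 of the 12 NuRD genes, 1 of the 2 Sin3 genes, 1 of the 2 CtBP genes and 4 of the 5 genes of the cereblon ligase. Among them, Rbbp4, Ddb1 and Cul4a had no peak for which their own TSS was the nearest, so their promoter peaks lay closer to the TSS of another gene. The 24.9% was counted by the same rule and can hold such genes too. The most peaks were at Gatad2a (12), Mta2 (10) and Mta3 (9), all of NuRD. Among all protein-coding genes, 10.5% had 8 or more, a lower threshold than these counts. Exactly 12, 10 and 9 peaks were found for 0.760%, 1.63% and 2.48% of genes. Of the peaks at Gatad2a, Mta2 and Mta3, 3, 0 and 3 lay in the gene body. By nearest TSS, 3, 2 and 4 peaks of the list fell to these genes. Hdac2, Rbbp7 and Sin3b had no peak. Trps1, named after its values were seen, is counted in the 20 and in the 13. The list of 23 genes was written with earlier results of these data known, so its shares are a description and test nothing. Trps1, a gene of 235 kb, had 6 peaks, all in the gene body, and the strongest scored 113.47, rank 99. No family gene had a peak of that score, but as Trps1 was named with its values known, this comparison tests nothing.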

How the data were processed

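Splenic CD4+ DC chromatin was sequenced in 2 Runx3 immunoprecipitates and 2 whole cell extract controls, in reads of 50 bp. The authors used Bowtie for unique alignment on mm9, and MACS2 to call peaks on the pooled samples; the submitters' processing notes also name CASAVA 1.8. Other versions, the threshold and duplicate handling are not given in the sources used here. The deposited list gives each peak's position and score; no counts per sample were used, so precision cannot be stated per peak. The 15121 scores take 1039 distinct values.

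Positions were counted from 1 and sequences read from NCBIM37, the same assembly as mm9. Exon and intron numbers follow the protein-coding transcript with the longest spliced length. Members, lists, motifs and the naming rule were chosen with earlier results of these data known. All members were named, in full their strongest and promoter peaks, with the genes of the nearest TSS. Of the partner genes, the 3 with most peaks and those with none were named. Partner genes with a promoter peak but no peak nearest to their own TSS were added after the values were seen. Printed sequences leave out annotated exons, and none is shown for Ikzf3, whose strongest peak is mostly exonic. Groups were taken from the titles, and no comparison between groups was possible on 1 pooled list. Window counts and motif searches were tested on simulated data. Alternatives were other distances, score minimums, joined peaks, placement and assignment rules. Computation used Python 3.11.15, numpy 2.4.6, pandas 2.3.3, scipy 1.17.1, pysam 0.24.0 and matplotlib 3.10.9.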

Additional observations from a re-analysis of the deposited data

How the results depend on the processing

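The number of peaks at the family depended most on how peaks were assigned. It was 17 as reported, 6 with a limit of 10 kb, 9 with 50 kb and 29 with 200 kb. Peaks whose nearest protein-coding TSS is that of the gene numbered 3, and basal plus extension domains (5 kb upstream, 1 kb downstream, up to 1000 kb) held 6. With scores at or above the list median 6 peaks remained, and at or above the upper quartile 4, with median scores of 63.2 and 84.6, which follows from the filter. The 17 peaks became neither more nor fewer when peaks closer than 300 bp were joined, when any base of the peak counted or when genes were cut to their longest protein-coding transcript. At least 1 peak was found for 3 or 4 of the 5 genes under all alternatives except the upper quartile, where Ikzf1 and Ikzf4 made 2. Ikzf2 had 0 peaks under all 10 alternatives. With its nearest peak 764810 bp away, the distance limits, score minimums and joining of peaks could have given no other count. The 3 intragenic peaks of Ikzf1 do not depend on the limit. The share of peaks with TGTGGT was 83.3% for scores at or above the list median and between 52.9% and 76.5% under the other alternatives. The share of all protein-coding genes with a peak was 43.4%, 62.6% and 80.7% with limits of 10, 50 and 200 kb, 79.1% for genes at least as long as the shortest family gene and 43.2% for scores at or above the upper quartile. The count of partner genes was not recomputed under other settings. No paired analysis was possible because the deposited list pools both replicates, which also means that no replicate could be left out. Since the file holds no read counts, whether weaker binding was present at a gene without a peak could not be examined.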
